A study of Mus musculus with 9 samples.

Results

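Transcripts of the insulin-like growth factor 2 axis were followed through muscle differentiation: the growth factor gene Igf2, its non-coding neighbour H19, the receptor gene Igf2r, and the genes of 3 mRNA-binding proteins, Igf2bp1, Igf2bp2 and Igf2bp3. These 6 genes were picked by symbol out of the 47729 genes in the count table, not by a cutoff on measured values. Earlier results of these data were known when they were picked. Symbols were matched to the table's Ensembl identifiers for 47224 genes, and all 6 were found. The question put to them was whether Igf2 and H19 move together.

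The samples were cultures of C2C12, an established mouse myoblast line whose cells stop dividing and fuse into multinucleate myotubes in horse serum. Per the labels, the population called WT received a non-target guide RNA, and the populations labelled Per1KO and Per2KO carried CRISPR-Cas9 knockouts of the circadian clock genes Per1 and Per2. Each was sampled undifferentiated in fetal bovine serum (day 0) and on days 3 and 5 of differentiation, with 1 library for each of the 9 combinations and no replicate of any. The labels give the tissue as whole muscle, while the cell line entry and the growth protocol describe C2C12 culture, and they do not say whether a population was 1 clone. With no replicates, the tests below use the 3 days of a population in their place for a genotype effect, and the 3 populations in their place for a day effect, so a p-value describes the spread among these 9 cultures, which may be technical.

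Igf2 is a secreted growth factor that differentiating myoblasts make and respond to, through the receptor of its relative Igf1. Igf2 and H19 are imprinted and lie side by side. In most tissues Igf2 is transcribed from the paternal chromosome and H19 from the maternal one, and both use enhancers beyond H19, with a control region between them that binds the insulator protein CTCF on the maternal copy. Igf2r, itself imprinted in the mouse, takes Igf2 to the lysosome and also sorts newly made lysosomal enzymes. The Igf2bp proteins bind mRNAs, Igf2 mRNA among them, and Igf2bp1 and Igf2bp3 are mostly fetal proteins that return in tumours.

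All 6 genes are on the minus strand in GENCODE M21 (GRCm38). H19 (ENSMUSG00000000031, a lincRNA) spans chr7:142575529-142578143 and Igf2 (ENSMUSG00000048583) spans chr7:142650766-142666816, with 72622 bases between them. Igf2r (ENSMUSG00000023830) is at chr17:12682406-12769664, Igf2bp1 (ENSMUSG00000013415) at chr11:95957163-96005940, Igf2bp2 (ENSMUSG00000033581) at chr16:22059009-22163299 and Igf2bp3 (ENSMUSG00000029814) at chr6:49085223-49214957.

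H19 and Igf2 each carry a microRNA hairpin, in an exon of H19 and in an intron of Igf2, and the mature forms are shown because these small RNAs are products of the locus. Sequences here and below are from RefSeq tables for GRCm38.p6 unless stated otherwise, and capitals mark the seed, bases 2 to 8.
mmu-miR-675-5p: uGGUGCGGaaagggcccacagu
mmu-miR-675-3p: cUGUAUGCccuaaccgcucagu
mmu-miR-483-5p: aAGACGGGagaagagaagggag
mmu-miR-483-3p: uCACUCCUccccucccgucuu
The 4 seeds differ from each other. Mir675 and Mir483 had 0 counts in every library, and mature microRNAs have no poly(A) tail by which these libraries could have captured them, so the counts below speak of the host transcripts.

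A microRNA outside the locus, let-7, is a textbook regulator of Igf2bp mRNAs and of Hmga2. The letters CTACCTC, which pair with its seed, were searched in the longest GENCODE transcript of each gene, on the transcript strand. They occur once in Igf2bp2, once in Igf2bp3, 2 times each in Igf2 and Igf2r, 4 times in Igf2bp1, 6 times in Hmga2, and in no position of H19. Of the longest transcripts of 47224 genes, with a median length of 1321 bases, 13.1% hold the letters at least once. The let-7a sequence is followed by the match in Igf2bp3, in the untranslated part after the coding sequence, by that in Igf2bp2, in a transcript annotated without a coding sequence, and by the coding match in Igf2, with the matched letters in capitals.
mmu-let-7a-5p: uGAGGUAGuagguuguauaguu
Igf2bp3 match: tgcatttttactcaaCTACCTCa
Igf2bp2 match: acacacaaataaaagCTACCTCa
Igf2 match: ccgagagggacgtgtCTACCTCt
These matches are letters in a transcript and were not tested as sites.

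The WT libraries held 5020385 to 6773320 counts and the libraries labelled as knockouts 41997763 to 48051824, 7.82 times as many on average. All WT libraries differ from all others in depth and in a lane suffix of their titles, so a sequencing batch and a genotype effect cannot be told apart wherever WT is compared. Levels are CPM, the counts scaled to a common library total over tested genes with TMM factors (a trimmed mean of log ratios between libraries), and 3 counts correspond to 0.424 to 0.660 CPM in WT and 0.0591 to 0.0731 CPM in the others. Intervals beside single libraries are 95% intervals for counting error only. On days 0, 3 and 5, Per1 levels were 20.9, 32.4 and 28.9 CPM under the Per1KO label, 16.5, 30.4 and 32.9 under the Per2KO label and 35.6, 33.8 and 31 in WT, so its transcript level does not set the Per1KO label apart. Per2 levels were 3.50, 9.13 and 8.38 CPM under the Per2KO label, 6.59, 9.44 and 10.6 under the Per1KO label and 9.74, 11.5 and 20.5 in WT. A frameshift need not lower a transcript. Myoblast markers (6 genes summed) were at 2574 to 6769 CPM in all libraries, while 3 of 5 blood markers (Ptprc, Adgre1, Cd3e), 3 of 5 adipocyte markers (Adipoq, Cfd, Plin1), 2 of 3 neural markers (Rbfox3, Snap25) and 0 of 4 endothelial markers had at most 3 counts everywhere. Summed levels were 0.658 to 3.39 CPM for blood and 0.831 to 3.62 CPM for endothelial markers, with Tek at up to 174 counts. Adipocyte markers summed to 5.47 to 26.9 CPM, nearly all of it Pparg, at up to 1363 counts.

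Per kilobase of exon, H19 was the most abundant of the 6 in every library, at 103 to 4785 CPM per kb. Count ranks of H19 and ratios of H19 to Igf2 below are in reads, not scaled to exon length. Igf2 covered the widest range, 0.0482 to 76.2 CPM per kb. Igf2r (9.22 to 37.7) and Igf2bp2 (6.0 to 13.7) were expressed at moderate levels throughout, while Igf2bp3 (0.135 to 0.612) and Igf2bp1 (0.0299 to 0.0670) were scarce. The filter on low counts asked for 1 CPM or more in 3 libraries or more; 5 of the 6 genes passed it and Igf2bp1 did not.

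**Figure D1:**
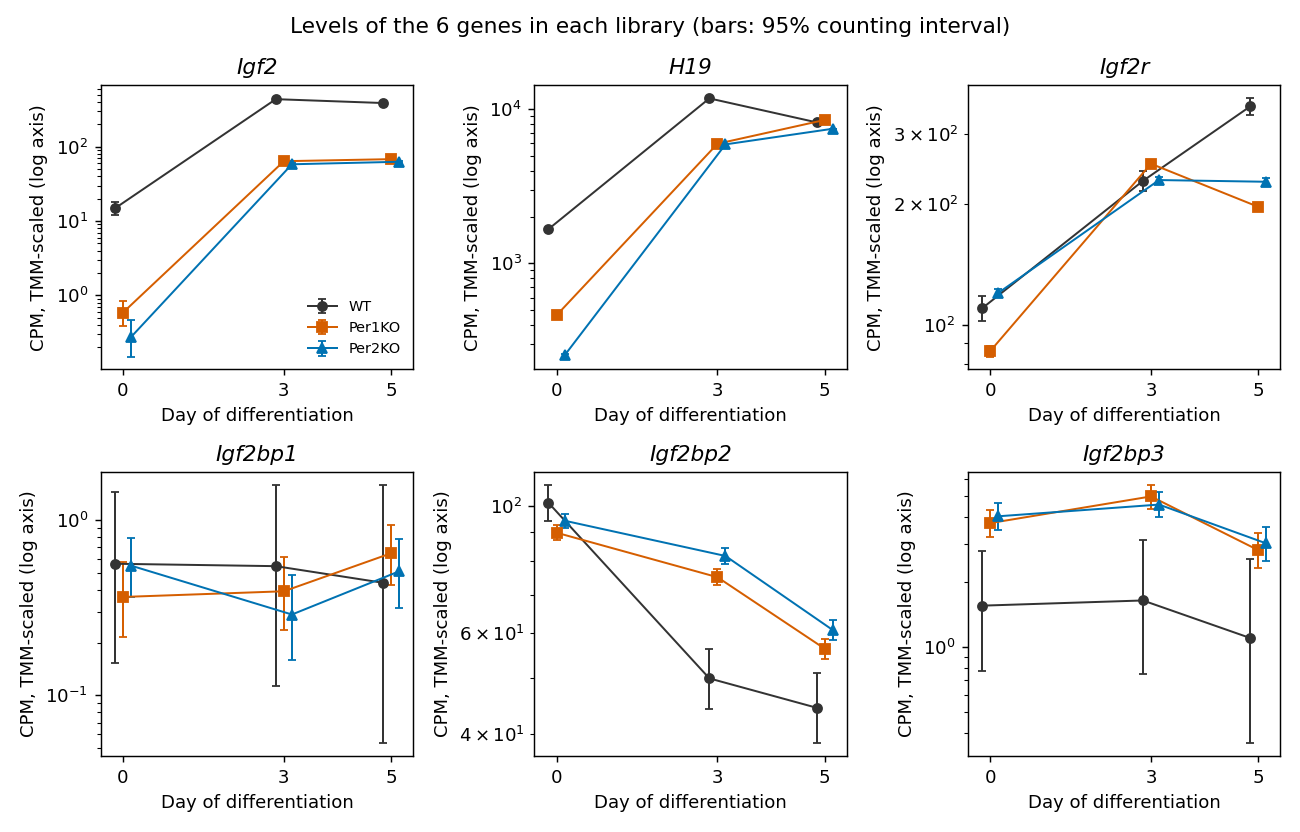
Level of each of the 6 genes in each library, as TMM-scaled CPM on a log axis against the day of differentiation, with 1 point per library and bars for the 95% counting interval. Igf2 lies lower in both populations labelled as knockouts on every day, H19 does so on days 0 and 3 but not in Per1KO on day 5, Igf2r is highest in WT on day 5 (351 CPM), and Igf2bp3 is above WT in all 6 libraries labelled as knockouts.

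Igf2 rose steeply with differentiation and was lower on every day in the populations labelled as knockouts. In WT it was at 14.8 CPM (105 counts) on day 0, 436 CPM (2390 counts) on day 3 and 387 CPM (1759 counts) on day 5. Under the Per1KO label its level was 0.588 CPM (29 counts), 63.9 CPM (3085 counts) and 68.0 CPM (2832 counts), and under the Per2KO label 0.276 CPM (14 counts), 58.1 CPM (2805 counts) and 62.7 CPM (2576 counts). Every library labelled as a knockout lay below the WT library of its day, and all 3 day 0 libraries lay below all later ones. The day 0 level in Per1KO was 0.0397 of the WT level, with a counting interval of 0.0253 to 0.0603, and in Per2KO 0.0186 of it, with an interval of 0.00982 to 0.0326. On day 3 the WT level was 6.83 times that of Per1KO and 7.51 times that of Per2KO, and on day 5 it was 5.69 and 6.17 times.

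The genotype and day effects were tested with edgeR's quasi-likelihood test in an additive model of all 9 libraries, with Benjamini-Hochberg adjustment over the 13324 genes that passed the filter and a threshold of 0.05. Igf2 was lower in Per1KO by a log2 fold change of -3.21 ± 0.49 (SE, edgeR adjusted p = 0.00429) and in Per2KO by -3.43 ± 0.50 (adjusted p = 0.00318), and both comparisons share the WT libraries. Among the 5 tested genes Igf2 was the 1 called lower in each, where 10.1% of all tested genes were called lower in Per1KO and 10.6% in Per2KO (19.3% and 19.9% in either direction). From day 0 to day 3 Igf2 rose by 6.08 ± 0.56 (adjusted p = 3.15e-04) and to day 5 by 6.11 ± 0.57 (adjusted p = 1.47e-04) on the log2 scale. Day 5 against day 3 gave 0.03 ± 0.43 (adjusted p = 0.986), with Igf2 at its highest on day 3 in WT and on day 5 in the others. Without the WT day 0 library the rises were 7.19 and 7.20 and the genotype effects -2.59 and -2.81, all still past the threshold.

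As a fold change, the rise of Igf2 was larger in the populations labelled as knockouts than in WT, with a lower starting level on day 0. In CPM the WT rise was the larger, from 14.8 to 436 by day 3. Per1KO went from 0.588 to 63.9 CPM and Per2KO from 0.276 to 58.1 CPM. Igf2 was 29.4 times higher on day 3 than on day 0 in WT (counting interval 24.2 to 36.1), 109 times in Per1KO and 211 times in Per2KO, where the day 0 counts were 29 and 14. A second model added a term for a different step from day 0 to days 3 and 5 in both knockouts, with 3 residual degrees of freedom. That term was 2.40 ± 0.33 for Igf2 (edgeR adjusted p = 0.0131), the 1 call among the 5 tested genes, where 3.50% of all tested genes were called higher and 1.45% lower, 4.95% in all. Without the Per2KO day 0 library it was 2.01 and no longer passed (adjusted p = 0.0641).

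Genes that mark myotubes rose with differentiation as Igf2 did, and their sum was lower in the populations labelled as knockouts. The summed level of 6 myotube markers (Myog, Mymk, Myh3, Ckm, Acta1 and Tnnt3) was 626 CPM on day 0 in WT, 33.5 in Per1KO and 15.7 in Per2KO, and 18314, 11432 and 8851 CPM on day 5. On day 5 Ckm was higher in Per1KO (435 CPM) and Per2KO (332 CPM) than in WT (276 CPM), while Myog, Mymk, Myh3, Acta1 and Tnnt3 were lower in both. Markers of fibroblasts (4 genes, of which Tcf21 had at most 3 counts everywhere) summed to 669 to 3832 CPM in WT and 71.7 to 320 CPM in the libraries labelled as knockouts. Nearly all of this sum was Col1a1, at 645 to 3667 CPM in WT and 64.0 to 305 CPM in the others. The part of either marker group in the Igf2 result was not tested. In bulk RNA, fewer cells of a type and less RNA per cell cannot be told apart.

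H19 was among the most abundant transcripts of differentiating cells. It was the most counted gene in the WT library of day 3 and the Per1KO library of day 5, the second in the Per2KO library of day 5, and the third in the other 3 libraries of days 3 and 5. In WT it was at 1668, 11770 and 8224 CPM on days 0, 3 and 5, in Per1KO at 460, 5972 and 8526 CPM, and in Per2KO at 253, 5918 and 7476 CPM. The WT day 3 library gave it 1.12% of all counts. The populations labelled as knockouts lay below WT on days 0 and 3, while on day 5 the Per1KO level was 1.04 times the WT level (counting interval 1.03 to 1.05) and the Per2KO level 0.909 times (0.899 to 0.919).

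H19 rose by a log2 fold change of 3.58 ± 0.47 from day 0 to day 3 (edgeR adjusted p = 0.00137) and by 3.78 ± 0.48 to day 5 (adjusted p = 6.94e-04), or by 4.28 and 4.38 without the WT day 0 library. Its additive genotype effects were -1.04 ± 0.44 in Per1KO (adjusted p = 0.137) and -1.33 ± 0.45 in Per2KO (adjusted p = 0.0756), and neither passed. They depended on single WT libraries, being -1.51 (adjusted p = 0.0382) and -1.82 (adjusted p = 0.0220) without that of day 5, but -0.35 (adjusted p = 0.398) and -0.71 (adjusted p = 0.0974) without that of day 0. The WT level was 3.63 times that of Per1KO and 6.60 times that of Per2KO on day 0, and 1.97 and 1.99 times on day 3. The interaction term was 1.74 ± 0.44 (adjusted p = 0.0677), in the direction of Igf2, and did not pass. That call was unchanged in 10 of 13 alternatives, and the adjusted p reached 0.421. The term passed without the WT day 3 library (2.23, adjusted p = 0.0172), without the Per1KO day 3 library (1.97, adjusted p = 0.0385) and with the knockout counts thinned to WT depth (1.73, adjusted p = 0.0400).

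Igf2 and H19 thus rose together during differentiation, but not by one factor, and their balance differed between genotypes. H19 reads per Igf2 read numbered 112, 27 and 21.3 in WT on days 0, 3 and 5. In Per1KO there were 782, 93.5 and 125, and in Per2KO 917, 102 and 119. On each day both populations labelled as knockouts had more H19 per Igf2 read than WT, and within each population day 0 had the most. The log2 ratio of H19 to Igf2 was higher than in WT by 2.88 on day 0, 1.85 on day 3 and 2.52 on day 5, a mean of 2.42 or 5.35-fold (exact permutation test within days, two-sided, p = 0.037, the smallest that its 27 arrangements allow). From day 0 to days 3 and 5 the log2 ratio changed by -2.22 in WT, -2.83 in Per1KO and -3.01 in Per2KO, a mean of -2.69 (exact permutation test within genotypes, two-sided, p = 0.037, again the smallest possible). The first difference lies between the shallow WT libraries and all others, so the batch named above cannot be told apart from genotype here.

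**Figure D2:**
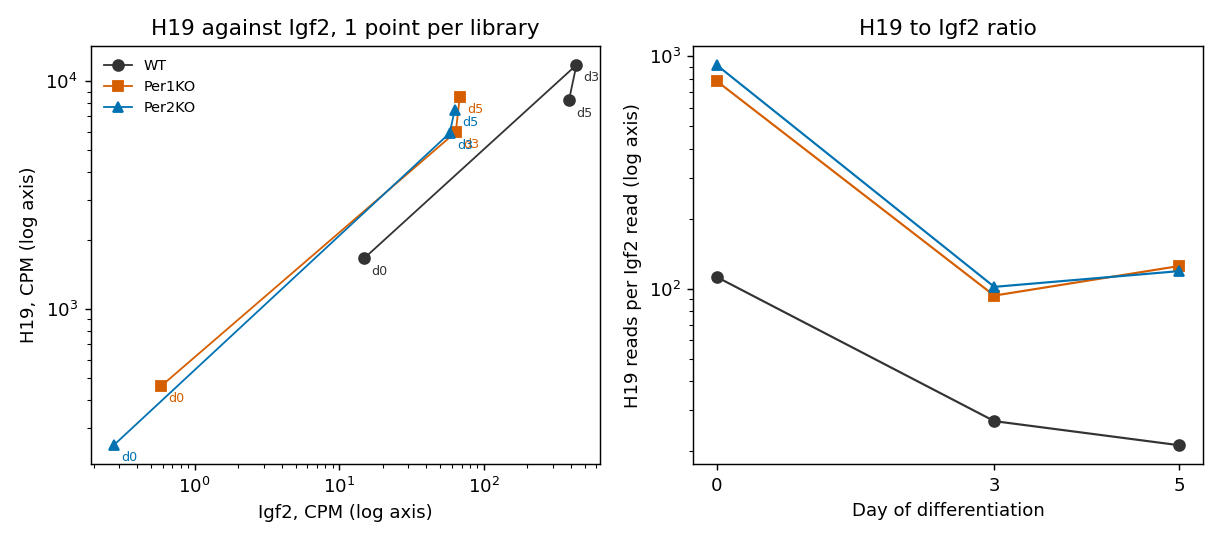
Left, H19 against Igf2, both as CPM on log axes, 1 point per library joined in order of day; right, H19 reads per Igf2 read on a log axis against the day. All 6 libraries labelled as knockouts lie at 93.5 or more H19 reads per Igf2 read, and the ratio is highest on day 0 in every population.

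Across the 9 libraries, log2 levels of Igf2 and H19 had a Pearson r of 0.972, a description over points that share libraries and scaling and differ mostly by day. Among 9585 genes averaging 10 CPM or more, H19 ranked 73 in likeness to Igf2, and Igf2 ranked 135 in likeness to H19. The closest to Igf2 were Mymx (r = 0.996) and Rbm24, Fuca1, Actc1 and Myog, of which Mymx encodes a fusion peptide of myoblasts and Myog a myogenic transcription factor. Those closest to H19 were Acta1 (r = 0.998), Slc2a6, Mymk, Tnni1 and Mylpf, with Acta1 the skeletal muscle actin and Mymk the fusion protein myomaker. Of 9586 genes, those closest to Igf2bp3 were Degs1 (r = 0.981), Mfsd14a, Gm10443, Gm8394 and Rpl17-ps10. Degs1 was at 152 to 176 CPM in WT and 207 to 235 CPM in the others, and Gm10443 at 2.20 to 3.39 and 14.1 to 25.7 CPM. Both differences lie between WT and all others, where batch and genotype cannot be told apart.

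Most other measured genes of the chromosome 7 neighbourhood also rose with differentiation. Of 15 listed neighbours 10 were tested, but Syt8, Ins2 and Nctc1 passed the filter through days 3 and 5 only and are not counted here. Of the other 7, 6 rose to day 3 and 5 to day 5, with 0 lower, where 18.1% and 23.2% of all tested genes rose. Their median log2 fold change was 0.85 for day 3 and 0.97 for day 5, against -0.01 and -0.01 over all tested genes. The fast troponin genes Tnni2 and Tnnt3 rose by 6.24 ± 0.61 (edgeR adjusted p = 1.90e-04) and 6.99 ± 0.74 (adjusted p = 2.75e-04) to day 5, where Tnnt3 is also among the 6 myotube markers above, while the lysosomal protease gene Ctsd rose by 0.97 ± 0.11 (adjusted p = 3.78e-04). Tspan32 rose by 3.41 ± 0.21 (adjusted p = 2.27e-05).

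Nctc1, a muscle non-coding RNA transcribed from the enhancer side of H19, had 0 counts in all 3 day 0 libraries. It had 9, 64 and 69 counts on day 3 and 1, 181 and 105 counts on day 5 in WT, Per1KO and Per2KO. With the 3 populations pooled, and a floor of 3 counts over the day 0 libraries together, Nctc1 was at least 49.7-fold higher on day 3. On day 5 it was at least 118-fold higher. The deeper libraries labelled as knockouts weigh most in these bounds, which do not hold for WT alone. WT was at 1.64 CPM on day 3 and 0.220 CPM (1 count) on day 5, where 3 counts on day 0 are 0.424 CPM. Ins2, on the other side of Igf2, went from 3, 5 and 4 counts on day 0 to 15, 114 and 165 counts on day 5 in WT, Per1KO and Per2KO. The antisense gene Igf2os had 1, 24 and 11 counts in WT and at most 20 in any library labelled as a knockout, although these were deeper.

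Lower levels in the populations labelled as knockouts were found for part of the neighbourhood. Syt8, a synaptotagmin gene with at most 57 counts in a library, was lower by -2.79 ± 0.31 in Per1KO (edgeR adjusted p = 7.89e-04) and -2.96 ± 0.31 in Per2KO (adjusted p = 6.31e-04). Tspan32 was lower by -0.82 ± 0.20 (adjusted p = 0.0268) and -1.0 ± 0.20 (adjusted p = 0.0121). Tnni2 passed in Per2KO only (-2.05 ± 0.52, adjusted p = 0.0301, against -1.70 ± 0.51 and 0.0553 in Per1KO), and no difference between the knockouts passed for any neighbour. That made 2 and 3 of 10 lower and 0 higher, where 10.1% and 10.6% of all tested genes were lower. Like Igf2, Tnni2 (2.12 ± 0.45, adjusted p = 0.0456) and Tnnt3 (2.65 ± 0.37, adjusted p = 0.0142) had a larger log2 step from day 0 to days 3 and 5 in the populations labelled as knockouts.

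**Figure D3:**
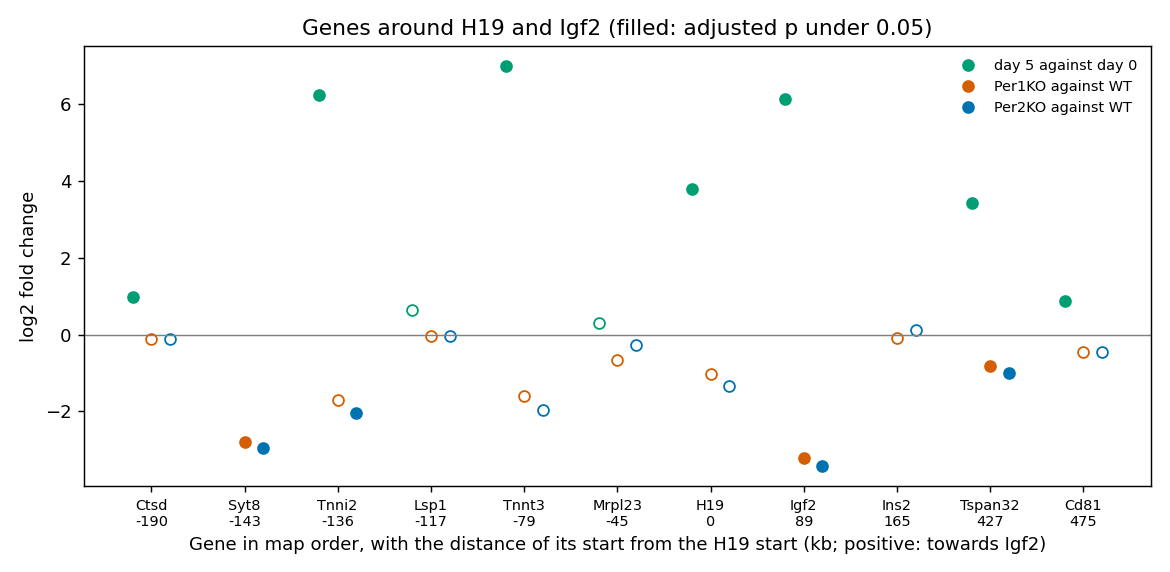
Log2 fold change of H19, Igf2 and 9 tested neighbours in map order, with distance from the H19 start in kb below each name; filled points passed an adjusted p of 0.05. Day 5 points are left out where day 0 libraries held at most 5 counts (Syt8 and Ins2), and Nctc1, with 0 counts on day 0, is not drawn.

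Upstream sequence was available for Igf2 at 4 start sites, and the window before 1 of them is shown because Igf2 has the largest genotype effect of the 6 genes and this window holds the most GC boxes. Gene-level counts do not tell which start was used. The motifs GGGCGG (GC box), CAGCTG (an E-box form bound by myogenic factors) and TATAAA were searched on both strands from 250 bases before to 50 after each start. GGGCGG had 2 matches in this window, 1 in another Igf2 window and 0 in the other two, while CAGCTG and TATAAA had 0 in all 4. Of 32851 windows of the same length, 35.7% hold GGGCGG, 16.3% CAGCTG and 13.6% TATAAA. The bases before the start, chr7:142657497-142657746 on the minus strand of GRCm38.p6, are printed with GGGCGG in capitals.
Igf2 upstream: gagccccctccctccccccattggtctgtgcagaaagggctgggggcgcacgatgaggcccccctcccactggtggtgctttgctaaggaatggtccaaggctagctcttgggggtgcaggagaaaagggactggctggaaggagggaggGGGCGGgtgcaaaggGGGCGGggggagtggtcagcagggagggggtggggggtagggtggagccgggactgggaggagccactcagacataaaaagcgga
The window of Igf2r held 3 GGGCGG matches, that of Igf2bp2 held 2 and that of Igf2bp3 held 0, and none of these held CAGCTG or TATAAA.

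Igf2r, the receptor that clears Igf2, rose with differentiation, and its genotype effects did not pass. In WT it was at 110, 229 and 351 CPM on days 0, 3 and 5, in Per1KO at 85.9, 252 and 197 CPM, and in Per2KO at 120, 230 and 227 CPM. All day 0 libraries lay below all others, and the share of all tested genes that separate so was not counted. It rose by a log2 fold change of 1.19 ± 0.20 to day 3 (edgeR adjusted p = 0.00343) and 1.27 ± 0.20 to day 5 (adjusted p = 0.00158). Together with Igf2 and H19 it made 3 of 5 tested genes called higher on day 3 and on day 5, against the 18.1% and 23.2% of all tested genes given above (35.0% and 46.1% called in either direction, 16.9% lower on day 3).

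The genotype effects of Igf2r were -0.35 ± 0.20 in Per1KO (adjusted p = 0.244) and -0.17 ± 0.20 in Per2KO (adjusted p = 0.566). On day 5 the Per1KO level was 0.562 of the WT level (counting interval 0.532 to 0.593) and the Per2KO level 0.648 (0.615 to 0.684), while on day 3 they were 1.1 and 1.0 times WT, so the day 5 difference had no counterpart on day 3. Airn, the antisense non-coding RNA that overlaps Igf2r, rose by 1.97 ± 0.37 to day 3 (adjusted p = 0.00546) and 1.81 ± 0.37 to day 5 (adjusted p = 0.00528), from 0.886 to 2.26 CPM on day 0 to 2.42 to 4.54 CPM on day 5. No exon base of Airn lies on an Igf2r exon.

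Igf2bp2, the Igf2bp family member expressed in adult muscle precursors, fell with differentiation. In WT it was at 101, 49.99 and 44.4 CPM on days 0, 3 and 5, in Per1KO at 89.8, 75.1 and 56.3 CPM, and in Per2KO at 94.2, 81.8 and 60.7 CPM. Levels on day 0 were above all later ones, and WT was the lowest of the 3 populations on days 3 and 5, while on day 0 the Per1KO level was 0.887 of the WT level (counting interval 0.819 to 0.961) and the Per2KO level 0.931 of it (0.860 to 1.008). The log2 fold change was -0.84 ± 0.17 on day 5 (edgeR adjusted p = 0.00479), the 1 call of a lower level among the 5 tested genes, where 22.9% of all tested genes were called lower. On day 3 it was -0.49 ± 0.17 and missed the threshold (adjusted p = 0.0540). That call was unchanged in 10 of 15 alternatives, and the adjusted p reached 0.138. It passed with DESeq2 size factors (adjusted p = 0.0472), DESeq2's Wald test (0.0260), thinned knockout counts (0.0257), the 6 knockout libraries alone (0.0347) and a scale from protein-coding genes only (0.0490).

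Genotype effects of Igf2bp2 were 0.23 ± 0.17 in Per1KO (adjusted p = 0.366) and 0.33 ± 0.17 in Per2KO (adjusted p = 0.198). Without the WT day 0 library they were 0.48 (adjusted p = 0.0220) and 0.58 (adjusted p = 0.0105). Each call was unchanged in 14 of 15 alternatives. On day 3 the Per1KO level was 1.5 times the WT level (counting interval 1.33 to 1.70) and the Per2KO level 1.64 times (1.45 to 1.86). The interaction term was 0.66 ± 0.17 and did not pass (edgeR adjusted p = 0.0717). That call was unchanged in 11 of 13 alternatives, and the adjusted p reached 0.215. The term passed without the WT day 5 library (0.79, adjusted p = 0.0191) and with DESeq2's Wald test (0.65, adjusted p = 0.0285).

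Igf2bp3 was the member called higher in the populations labelled as knockouts. In WT it was at 1.55 CPM (11 counts), 1.64 CPM (9 counts) and 1.1 CPM (5 counts) on days 0, 3 and 5. In Per1KO it was at 3.75, 4.99 and 2.81 CPM and in Per2KO at 4.04, 4.57 and 3.02 CPM, from 117 to 241 counts. Every library labelled as a knockout lay above every WT library, and the share of all tested genes that separate so was not counted. As wherever WT is compared, batch and genotype cannot be told apart here. The log2 fold change was 1.41 ± 0.23 in Per1KO (edgeR adjusted p = 0.00451) and 1.43 ± 0.23 in Per2KO (adjusted p = 0.00404), where 9.26% and 9.31% of all tested genes were called higher. Day effects were 0.27 ± 0.18 on day 3 (adjusted p = 0.283) and -0.43 ± 0.19 on day 5 (adjusted p = 0.0917), and neither passed.

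WT counts of Igf2bp3 were low, so single ratios are wide. The Per1KO level was 2.41 times the WT level on day 0 (counting interval 1.32 to 4.92), 3.04 times on day 3 (1.57 to 6.73) and 2.56 times on day 5 (1.06 to 8.02). Malsu1, a gene of a mitochondrial ribosome factor on the opposite strand, has 1529 of its 3777 exon bases on Igf2bp3 exons, and the sources used here do not say whether counting used strand, so reads of the pair may not be told apart. Malsu1 was at 14.3 to 20.8 CPM in WT and 17.6 to 22.4 CPM in the others, ranges that overlap.

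Igf2bp1 had 2 to 28 counts in a library and 0.290 to 0.649 CPM, and was not tested. In WT it had 4, 3 and 2 counts on days 0, 3 and 5, in Per1KO 18, 19 and 27 and in Per2KO 28, 14 and 21. The counting interval of the WT day 5 level, 0.0533 to 1.59 CPM, covers every level of the gene in the other libraries. A genotype difference was not tested.

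**Figure D4:**
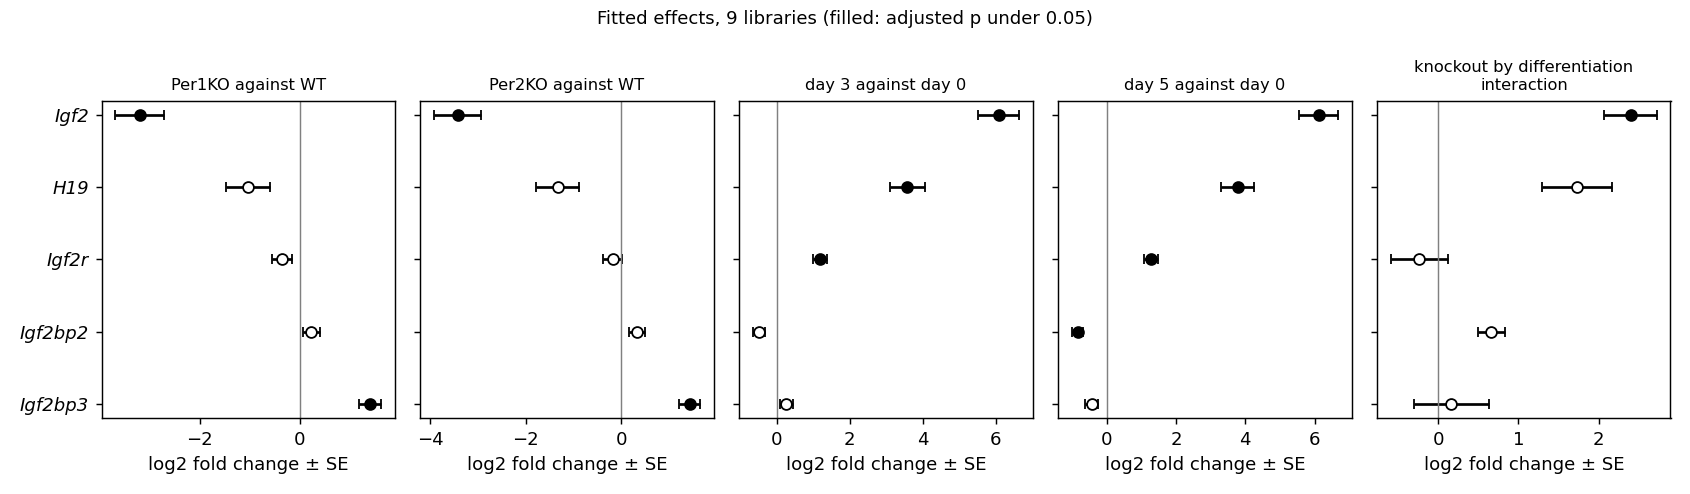
Log2 fold change ± SE of the 5 tested genes in the additive fit (4 panels on the left) and of the interaction term (right panel), each panel with its own axis; filled points passed an adjusted p of 0.05. Igf2 is filled in all 5 panels, and Igf2bp3 is the filled point to the right of 0 in both knockout panels.

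The knockouts were not told apart by any of the genes. Per1KO against Per2KO gave log2 fold changes of 0.22 ± 0.46 for Igf2, 0.29 ± 0.42 for H19, -0.18 ± 0.20 for Igf2r, -0.10 ± 0.16 for Igf2bp2 and -0.02 ± 0.16 for Igf2bp3, each with an edgeR adjusted p of 1.00. No gene of the 13324 was called, 0% of those tested, with 88 at an unadjusted p under 0.05, 1 called by DESeq2's Wald test and 1 called without the filter. On day 0 single libraries still differed beyond counting error, with Igf2 2.13 times (counting interval 1.09 to 4.37) and H19 1.82 times (1.78 to 1.86) as high in Per1KO. Day 5 against day 3 called none of the 5 genes either, where 1.79% of all tested genes were called, 0.698% higher and 1.09% lower. In the 6 knockout libraries alone Igf2bp2 (-0.42, edgeR adjusted p = 0.0219) and Igf2bp3 (-0.71, adjusted p = 0.0448) did pass as lower on day 5 than on day 3. That fit called many more genes over the whole table, 1393 against 238 with all 9 libraries.

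Other genes that act on the same ligands changed in parts. Of 16 listed genes of the insulin-like growth factor pathway (a list without Igf2 and Igf2r), 15 were tested. Igfbp3 passed the filter through WT only (1.98 to 3.83 CPM, against 0.228 to 0.913 CPM in the others) and is not counted. Of the other 14, 3 were lower and 1 higher in each population labelled as a knockout, where 10.1% and 10.6% of all tested genes were lower and 9.26% and 9.31% higher, with medians of -0.02 in Per1KO and -0.11 in Per2KO against -0.02 and -0.01 over all tested genes. Igf1, the other ligand, had 11, 267 and 541 counts in WT, 2, 260 and 268 in Per1KO and 1, 208 and 401 in Per2KO, and was lower by -3.80 ± 0.35 and -3.70 ± 0.34 (edgeR adjusted p = 3.37e-04 and 3.38e-04). The binding protein genes Igfbp4 (-2.16 ± 0.30 and -1.71 ± 0.30) and Igfbp6 (-0.41 ± 0.11 and -0.43 ± 0.11) were lower too. Pappa, a protease that frees the ligand from Igfbp4, was higher by 1.26 ± 0.22 and 1.57 ± 0.21. The receptor gene Igf1r did not pass in Per1KO (0.38 ± 0.39) but had a positive interaction term, 1.70 ± 0.30 (adjusted p = 0.0291). Stc1 had a negative one, -2.75 ± 0.56 (adjusted p = 0.0401). That made 1 higher and 1 lower among the 15 tested, where 3.50% of all tested genes were called higher and 1.45% lower.

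During differentiation the counts were near those over all genes or below them. Of 14 tested genes, with Pappa2 left out because it passed the filter through day 5 and not day 0, 2 rose to day 5 and 3 fell, where 23.2% of all tested genes rose and 22.9% fell. Igf1 (6.85 ± 0.42, edgeR adjusted p = 2.12e-05) and Igfbp7 (1.30 ± 0.23) rose, and Igfbp2 (-2.15 ± 0.18), Stc2 (-1.65 ± 0.40) and Pappa (-1.08 ± 0.19) fell. The median of the 14 was 0.01, against -0.01 over all tested genes. Igfbp5, the binding protein gene most linked to myoblasts, was at 2468 to 5401 CPM across all libraries, and its day 5 effect of 0.50 ± 0.20 did not pass (adjusted p = 0.0810).

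Partners and target mRNAs of the Igf2bp proteins were mostly lower by day 5. Of 15 listed, 13 were tested, and 12 were lower and 1 higher on day 5, with a median of -0.72 against -0.01 over all tested genes, of which 22.9% were lower and 23.2% higher. On day 3, 6 were lower, 1 was higher and 6 did not pass, with a median of -0.39. Of all tested genes 16.9% were lower and 18.1% higher on day 3. Hmga2 (-3.23 ± 0.14, edgeR adjusted p = 7.61e-06), which encodes a chromatin protein of growing cells and holds the let-7 matches counted above, Hmga1 (-2.94 ± 0.23), the cyclin gene Ccnd1 (-2.31 ± 0.26) and Nras (-0.45 ± 0.10) fell, and the cyclin gene Ccnd3 rose (1.79 ± 0.30). In the populations labelled as knockouts 3 of 13 were higher and 0 lower, where 9.26% and 9.31% of all tested genes were higher: Hmga2 by 1.12 ± 0.14 and 1.17 ± 0.14 (adjusted p = 0.00123 and 0.00101), Syncrip by 0.52 ± 0.12 and 0.57 ± 0.12, and Dhx9 by 0.50 ± 0.11 and 0.46 ± 0.11. Syncrip and Dhx9 encode RNA-binding proteins found in complexes with Igf2bp1. Hmga2 was at 145, 17.3 and 17.6 CPM in WT, 339, 40.5 and 32.6 in Per1KO and 312, 47.6 and 33.6 in Per2KO, above WT on every day.

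Of 13 listed factors known to act at the Igf2 and H19 domain, 12 were tested. On day 5, 7 were lower and 2 higher, where 22.9% and 23.2% of all tested genes were, with a median of -0.47 against -0.01 over all tested genes. Ctcf (-0.54 ± 0.12), the cohesin genes Rad21 (-0.65 ± 0.11) and Smc1a (-0.69 ± 0.10) and Dnmt1, the maintenance DNA methyltransferase (-1.87 ± 0.14), fell, while Myod1 rose by 0.67 ± 0.21 and Foxo1 by 1.49 ± 0.15. None passed in Per1KO, where 19.3% of all tested genes were called in either direction. In Per2KO 1 was lower, where 10.6% of all tested genes were lower and 19.9% were called in either direction. This was Zfp57, an imprint-protecting zinc finger gene, at -0.66 ± 0.19 (edgeR adjusted p = 0.0413). Ctcf had a genotype effect of 0.20 ± 0.12 in Per1KO (adjusted p = 0.269). These fits hold transcript levels only, and DNA methylation or binding at the domain was not analysed here.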

How the data were processed

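Poly(A)-selected RNA from 9 cultures was sequenced on an Illumina HiSeq, per the labels' protocols. The authors deposited whole-number read counts per Ensembl gene. The submitters' processing notes name HISAT2 2.1.0 and CASAVA 1.8 with build mm10; the counting program and its strand setting are not given in the sources used here. Counts were scaled by TMM and tested with edgeR 4.0.16 (limma 3.58.1, R 4.3.3; glmQLFit, robust) on the 13324 genes at 1 CPM or more in 3 or more libraries, with 4 residual degrees of freedom, and called at a Benjamini-Hochberg adjusted p under 0.05. An SE is the size of the log2 fold change over the root of F. CPM and share intervals are exact (Clopper-Pearson), and ratios between libraries have exact conditional binomial intervals. The test was tested on simulated data. Named genes were the 6 members and those genes of the listed groups that passed in a comparison; any other was named after its values were seen. Members, lists and tests were chosen with earlier results of these data known. Alternatives were DESeq2 1.42.0, its size factors, no filter, thinned knockout counts, subsets of libraries and each library left out. A scale from protein-coding genes only was added after seeing the data.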

Additional observations from a re-analysis of the deposited data

Results flagged for a closer look

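For Igf2 the step from day 0 to days 3 and 5 differed between WT and both populations labelled as knockouts, by 2.40 ± 0.33 on the log2 scale in a test of the difference itself (edgeR adjusted p = 0.0131). The day 0 levels behind it were 14.8 CPM in WT, 0.588 in Per1KO and 0.276 in Per2KO, from 105, 29 and 14 counts, and the same difference lies between sequencing depths. Across its alternatives the term ranged from 2.01 to 3.17 and its adjusted p from 6.02e-07 to 0.0641.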

How the results depend on the processing

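Across 15 alternatives, the lower Igf2 and higher Igf2bp3 in both knockouts, and the rises of Igf2, H19 and Igf2r on days 3 and 5, kept their direction and stayed past the threshold, as did the fall of Igf2bp2 on day 5. With each library left out, the rise to day 3 ranged from 5.58 to 7.19 for Igf2 and 3.15 to 4.28 for H19, and that to day 5 from 5.60 to 7.20 and 3.31 to 4.38, each highest without WT day 0. The H19 to Igf2 log2 ratio ranged from 2.19 to 2.70 between knockouts and WT and from -3.00 to -2.53 between days, in 5 alternatives each. Of effects of the 5 tested genes, 8 changed sign with a library left out, in 15 fits, none of them called. With each library left out, day 5 against day 3 ranged from -0.24 to 0.35 for Igf2, -0.15 to 0.61 for H19 and -0.16 to 0.30 for Igf2r. Per1KO against Per2KO ranged from -0.082 to 0.54 for Igf2, -0.097 to 0.64 for H19 and -0.11 to 0.024 for Igf2bp3. For Igf2r, Per2KO against WT ranged from -0.34 to 0.078 and the interaction from -0.62 to 0.19. With thinned knockout counts Igf2bp3 changed sign in Per1KO against Per2KO (0.021), on day 3 (-0.12) and in the interaction (-0.0071), and with the knockout libraries alone Igf2r did in day 5 against day 3 (-0.19).

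Counts of called genes over the whole table moved more. Fits of only the 6 libraries of the genotypes compared called 1391 genes in Per1KO and 1263 in Per2KO, against 2575 and 2652. The knockout libraries alone called 7684 on day 3 (against 4664) and 1393 for day 5 against day 3 (against 238). Without the filter 370 genes were called for day 5 against day 3 and 1 for Per1KO against Per2KO. DESeq2's Wald test called 728 and 1 for these and 1464 for the interaction (against 659). With each library left out the counts were 1154 (without Per1KO day 5) to 3602 for Per1KO, 1158 (without Per2KO day 3) to 3738 for Per2KO, 2160 (without Per2KO day 3) to 6331 for day 3, 3728 (without Per1KO day 5) to 7431 for day 5, 0 (without Per1KO day 5) to 742 (without WT day 0) for day 5 against day 3, and 51 (without Per2KO day 0) to 2201 (without WT day 5) for the interaction; the cause was not tested, beyond the fewer libraries in such fits.

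The interaction could not be fitted without the WT day 0 library. Genotype effects were fitted within days and day effects within genotypes, and no replicate numbers allow another pairing. Depth limits Igf2bp1 and Igf2bp3 in WT, and Igf2 on day 0 in the knockouts.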

Other observations

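Genes that share the second task of Igf2r, the sorting of lysosomal enzymes tagged with mannose 6-phosphate, were called about as often as other genes on day 3 and went both ways. All 8 listed were tested, with 2 higher and 1 lower on day 3, where 18.1% and 16.9% of all tested genes were, and 1 higher and 1 lower on day 5, where 23.2% and 22.9% were. Gnptg and Gnptab, which encode subunits of the enzyme that makes the tag, went in opposite directions on day 5, with log2 fold changes of 1.03 ± 0.17 (edgeR adjusted p = 0.00184) and -0.94 ± 0.11 (adjusted p = 3.49e-04). In both knockouts Gnptab was higher (0.43 ± 0.11 and 0.41 ± 0.11) and the sorting adaptor gene Gga1 lower (-0.42 ± 0.12 and -0.43 ± 0.12).

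Of 17 listed genes of the imprinted network, 3 of them Igf2, H19 and Igf2r, 11 were tested. Ndn was at 1.32 to 3.47 CPM in WT and 0.197 to 0.721 CPM in the others, and passed the filter through WT only. Peg3 (1.47 ± 0.21, edgeR adjusted p = 0.0150), Mest (2.29 ± 0.38, adjusted p = 0.0235) and Dcn (2.76 ± 0.35, adjusted p = 0.0119) had positive interaction terms beside Igf2, which makes 4 of 11 with 0 negative, where 3.50% of all tested genes were called higher and 1.45% lower.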
